A study of Drosophila melanogaster with 18 samples.

Results

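Wild-type embryos of Drosophila melanogaster collected 2-3h after egg lay were compared with wild-type embryos collected 1-2h after egg lay. Total RNA had been sequenced in 3 libraries at each of these time points, so 6 of the 18 libraries of the series were used, chosen by their labelled genotype and collection time. The wild type is the w1118 stock, a white-eyed laboratory strain that the labels call the control before injection. The series also holds libraries collected at 0-1h and libraries of orb2-delta-zz embryos, whose allele lacks the ZZ zinc-binding region of the RNA-binding protein Orb2; these appear below only where the wild-type values are set beside them. All flies were kept at 25ºC with 12 h of light a day, and each library came from pooled, dechorionated embryos, so no library is a single animal. A 1-hour collection holds embryos of different ages. At 2-3h 9141 genes were listed and at 1-2h 8188. The comparison used the 8109 genes listed in both, and the 1032 genes listed at 2-3h and not at 1-2h are described apart.

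A fly embryo begins life on RNA and protein that the mother loaded into the egg. During the maternal-to-zygotic transition these maternal RNAs are repressed and destroyed, first by factors made from maternal RNA and later by factors the embryo makes itself, while transcription of the embryo's own genome starts. The time between 1 and 3 hours after egg lay spans the last rapid nuclear divisions, the onset of broad zygotic transcription and cellularization, when membranes grow down between the nuclei, and it ends near the start of gastrulation. The first zygotic genes are known for short, intron-poor transcription units, and the segmentation and dorsal-ventral genes that follow lay out the body plan.

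Values are TPM, transcript abundances corrected for length and given as a share of a fixed total in each library, so a gene can change only relative to all others, and fewer cells with a transcript and less of it per cell cannot be told apart in whole embryos. Each fold change below is on the log2(TPM + 1) scale, 2-3h over 1-2h, which understates the change of genes near 0. The 3 values of a gene at one time are always given for replicates 1, 2 and 3. The 6 libraries separated by time along the first principal component, which held 87.7% of the variance, and the 2-3h libraries lay at 70.9, 50.8 and 32.4 on it, against -37.6, -69.7 and -46.8 for the 1-2h libraries. Pearson correlations across the 7573 genes tested were 0.939 to 0.987 among 2-3h libraries, 0.972 to 0.989 among 1-2h libraries and 0.725 to 0.913 between the times. Nothing in the labels says that the libraries of one time came from separate collections, so p-values measure only the spread between these libraries. The labels record no batch, and the 2 times were deposited as separate tables, so time and any difference in handling between them cannot be told apart. Maternal and embryonic markers were both present, as described below, and of 17 eggshell and yolk genes used as markers of ovary none was tested, 15 were in neither table and the 2 listed only at 2-3h, Yp3 and Cp18, averaged 0.293 and 0.845 TPM.

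Most genes that moved between the 2 collections lost share. Of 7573 genes tested, 2448 (32.3%) were called lower at 2-3h and 1555 (20.5%) were called higher, 52.9% in all, by limma's moderated test at a Benjamini-Hochberg adjusted p of 0.05. The median change was -0.16 over all genes tested, -1.23 over genes called lower and 1.13 over genes called higher. Falls reached further than rises on this scale: 161 genes fell by 3 or more and 45 by 4 or more, whereas 9 genes rose by 3 or more and 0 by 4 or more. Every 2-3h library lay below every 1-2h library for 37.6% of genes tested and above for 28.1%. With TPM rescaled by trimmed mean factors, which moved the median change to -0.01, the split became 2186 lower and 2097 higher, so the balance of direction depends on how libraries are scaled. The genes called lower took 7.69%, 8.97% and 10.6% of all TPM in the 2-3h libraries, against 19.0%, 24.9% and 20.8% in the 1-2h libraries. The genes called higher took 27.4%, 25.3% and 23.0% at 2-3h, against 16.2%, 14.7% and 16.7% at 1-2h.

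**Figure D1:**
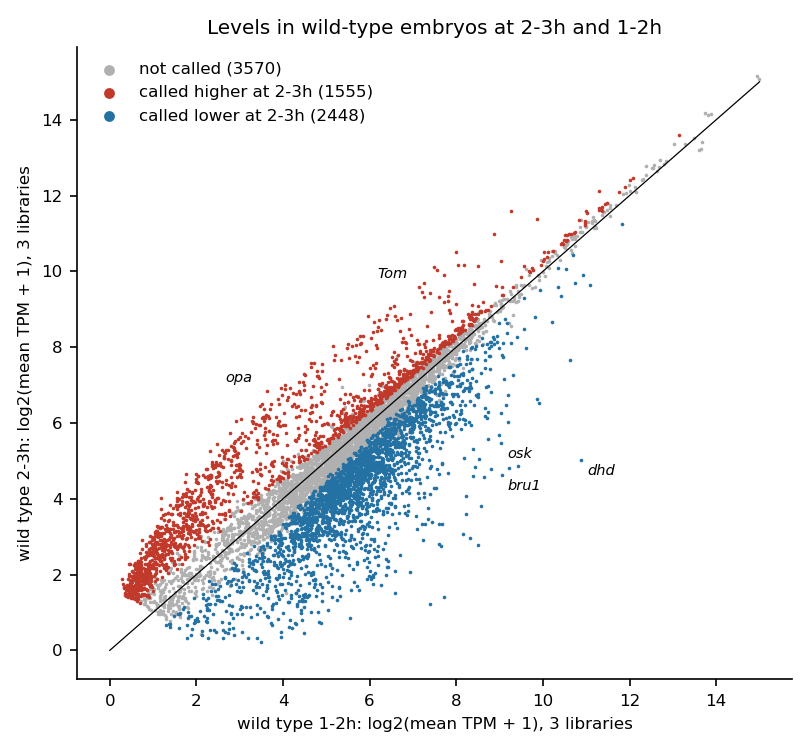
Mean level of each of the 7573 genes tested in wild-type embryos, as log2(mean TPM + 1) over 3 libraries, at 2-3h (vertical axis) and 1-2h (horizontal axis), with the line of equal level. Genes called higher (1555, red) lie above the line and genes called lower (2448, blue) below it, and dhd, with a mean of 31.4 TPM at 2-3h, against 1897 TPM at 1-2h, lies far below it.

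The 10 genes with the largest falls, among called genes with separated groups and a mean of 10 TPM or more in either group, were CG8180, Cyp6a19, dhd, BicC, GstD1, Akr1B, CG4476, yin, mtrm and CG4991. All 10 had already been lower at 1-2h than at 0-1h in their means. The most abundant was dhd (deadhead), a maternal thioredoxin that acts on sperm chromatin at fertilization, annotated on chromosome X at 5312171 to 5313125 on the plus strand of the BDGP6.54 annotation as a gene with 1 exon. It had 17.3, 32.6 and 44.2 TPM at 2-3h, against 1254, 2836 and 1600.0 TPM at 1-2h (log2 fold change -5.88, SE 0.394, limma adjusted p = 0.000567). Its mean was 6741 ± 240.0 TPM at 0-1h, 1897 ± 832 TPM at 1-2h and 31.4 ± 13.5 TPM at 2-3h (SD, n = 3 each), so by 2-3h little of the most abundant of these transcripts was left in any library. CG8180, on chromosome 2R at 15472175 to 15482834 on the minus strand, had 0.650, 1.13 and 2.16 TPM at 2-3h, against 123, 223 and 157 TPM at 1-2h (log2 fold change -6.20, SE 0.318, limma adjusted p = 0.000567). The cytochrome P450 gene Cyp6a19, on chromosome 2R at 14877786 to 14879752 on the plus strand, had 0.893, 2.27 and 1.85 TPM at 2-3h, against 107, 329 and 191 TPM at 1-2h (log2 fold change -6.19, SE 0.418, limma adjusted p = 0.000567). Both were near 1 TPM in every 2-3h library after levels above 100 TPM in every 1-2h library.

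BicC (Bicaudal C) encodes an RNA-binding repressor of translation that acts in oogenesis, and mtrm (matrimony) an inhibitor of Polo kinase that holds the oocyte in meiosis. BicC had 2.31, 6.39 and 9.07 TPM at 2-3h, against 213, 532 and 331 TPM at 1-2h (log2 fold change -5.74, SE 0.471, limma adjusted p = 0.000567). For mtrm the values were 6.32, 11.2 and 21.5 TPM at 2-3h, against 332, 459 and 341 TPM at 1-2h (log2 fold change -4.89, SE 0.381, limma adjusted p = 0.000567). No 2-3h library of either gene came near its lowest 1-2h library. The enzymes GstD1, a glutathione S-transferase, and Akr1B, an aldo-keto reductase, changed by -5.28 and -5.18, the oligopeptide transporter gene yin by -4.92, and CG4476 and CG4991 by -5.10 and -4.89. Several of the 10 overlap a neighbour in the annotation (Cyp6a19 with Cyp6a9 and yin with CG2930 on the opposite strand, mtrm with Exo70 and CG4991 with CG16700 on the same strand). The library kit marks strand, but no source used here says whether strand was kept in the counting, so values of overlapping genes are uncertain.

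Of 19 tested maternal genes that set up the body axes, 12 fell and none rose, with a median change of -1.47 against -0.16 over all genes tested. Over all genes 32.3% were called lower and 20.5% higher, and 8 of the 12 calls were made whichever library was left out. The largest falls were those of dl (-4.28), which encodes the NF-kappaB factor Dorsal, exu (-3.98), which localizes bicoid RNA, osk (-3.93), the organizer of the germ plasm, and nanos (-3.24), a repressor of translation at the posterior pole. Exu RNA had 6.75, 10 and 11.4 TPM at 2-3h, against 102, 265 and 152 TPM at 1-2h (log2 fold change -3.98, SE 0.356, limma adjusted p = 0.000635). The dl values were 0.444, 1.75 and 3.81 TPM at 2-3h, against 38.0, 69.8 and 50.1 TPM at 1-2h (log2 fold change -4.28, SE 0.451, limma adjusted p = 0.000856). In both genes every 2-3h library lay far below every 1-2h library. Spz, the ligand of the Toll receptor, fell by 2.73 on the log2 scale, and the anterior RNA-localization factor swa by 2.39, a call lost without 1-2h replicate 2 (adjusted p = 0.07) or 1-2h replicate 3 (adjusted p = 0.0633).

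The axis genes did not move as a block. The anterior morphogen gene bcd had 14.2, 51.2 and 95.5 TPM at 2-3h, against 93.2, 137 and 124 TPM at 1-2h and was not called (log2 fold change -1.47, SE 0.607, limma adjusted p = 0.0765). Its replicate 3 at 2-3h was close to the 1-2h libraries, and without that library the change was -2.07 with an adjusted p of 0.00814. Cad, a posterior homeodomain gene, fell (log2 fold change -1.55, SE 0.405, limma adjusted p = 0.0159). Cact, the inhibitor that holds Dorsal in the cytoplasm, had 266, 279.9 and 286 TPM at 2-3h, against 199.7, 259 and 252 TPM at 1-2h and was not called (log2 fold change 0.24, SE 0.119, limma adjusted p = 0.133). The 2-3h values of cact lay above all 1-2h values, and rescaling by trimmed mean factors brought it past the threshold (0.40, adjusted p = 0.00819).

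Germ plasm genes, whose RNA or protein collects at the posterior pole where germ cells form, fell in 14 of 19 tested, with a median of -1.93 and none called higher. The shares over all genes were 32.3% lower and 20.5% higher. Osk RNA had 9.54, 46.2 and 73.3 TPM at 2-3h, against 384, 692 and 492 TPM at 1-2h (log2 fold change -3.93, SE 0.666, limma adjusted p = 0.00299). Hsp83, a chaperone gene, was the most abundant member with 164, 196 and 242 TPM at 2-3h, against 1343, 1919 and 1469 TPM at 1-2h (log2 fold change -2.97, SE 0.181, limma adjusted p = 0.000567). All 3 libraries of each at 2-3h were lower than any at 1-2h. The pole-cell repressor of transcription pgc had 47.4, 73.0 and 107 TPM at 2-3h, against 364, 702 and 506 TPM at 1-2h (log2 fold change -2.80, SE 0.331, limma adjusted p = 0.00110), and the gap-junction gene zpg had 24.1, 68.7 and 122 TPM at 2-3h, against 307, 503 and 406 TPM at 1-2h (log2 fold change -2.73, SE 0.529, limma adjusted p = 0.00489). Orb, which encodes a CPEB protein that controls polyadenylation of RNAs in the oocyte, had 3.08, 10 and 17.1 TPM at 2-3h, against 139.8, 203 and 142 TPM at 1-2h (log2 fold change -4.10, SE 0.506, limma adjusted p = 0.00122). Among piRNA pathway members, krimp (-2.57), piwi (-1.93), qin (-1.79) and spn-E (-1.01) fell, whereas aub (-0.18, adjusted p = 0.468) was not called.

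Of 32 tested genes listed as repressors, decay factors or other regulators of maternal RNA, 18 fell and 1 rose, with a median of -0.64. The gene that rose, Gld2, encodes a cytoplasmic poly(A) polymerase. The median over all genes was -0.16, with 32.3% called lower and 20.5% higher. Of the 18 calls lower, 14 were made whichever library was left out. The translational repressor gene bru1 had 6.13, 20.8 and 44.1 TPM at 2-3h, against 362, 706 and 513 TPM at 1-2h (log2 fold change -4.73, SE 0.620, limma adjusted p = 0.00143). The cup gene, whose product binds the cap-binding protein eIF4E, had 27.8, 64.4 and 94.0 TPM at 2-3h, against 184, 267 and 221 TPM at 1-2h (log2 fold change -1.98, SE 0.406, limma adjusted p = 0.00606). The helicase gene me31B, the most abundant of the list that fell, had 667, 949 and 1260.5 TPM at 2-3h, against 1424, 2279.7 and 2098 TPM at 1-2h (log2 fold change -1.03, SE 0.261, limma adjusted p = 0.0139). These 3 repressor genes were each lower in all 2-3h libraries, and the range between libraries was wider at 2-3h relative to the level. Smg, the main maternal destabilizer of RNA, had 100.1, 278 and 441 TPM at 2-3h, against 534, 685 and 634 TPM at 1-2h (log2 fold change -1.41, SE 0.481, limma adjusted p = 0.0421). That call was lost without 2-3h replicate 2 (adjusted p = 0.07), 1-2h replicate 1 (adjusted p = 0.088), 1-2h replicate 2 (adjusted p = 0.104) or 1-2h replicate 3 (adjusted p = 0.0962), and under trimmed mean rescaling (-1.25, adjusted p = 0.0555). Twin and Pop2, the deadenylases of the CCR4-NOT complex, fell (log2 fold change -1.30, SE 0.226, limma adjusted p = 0.00323 for twin and log2 fold change -0.81, SE 0.151, limma adjusted p = 0.00422 for Pop2), while its scaffold gene Not1 had 185, 228 and 249 TPM at 2-3h, against 183, 214 and 214 TPM at 1-2h and was not called.

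The PAN GU kinase, which releases maternal RNAs for translation at egg activation, has 3 subunits whose genes behaved differently. The gnu gene had 3.68, 11.3 and 22.9 TPM at 2-3h, against 104, 211 and 171 TPM at 1-2h (log2 fold change -3.82, SE 0.570, limma adjusted p = 0.00204). The catalytic subunit gene png changed by -2.97. The third, plu, had 50.0, 72.9 and 105 TPM at 2-3h, against 99.4, 128 and 111 TPM at 1-2h and was not called (log2 fold change -0.62, SE 0.259, limma adjusted p = 0.0795), though without 2-3h replicate 3 its change was -0.88 with an adjusted p of 0.008. Orb2, the gene altered in the other genotype of the series, had 4.92, 11.1 and 15.2 TPM at 2-3h, against 24.1, 35 and 29.0 TPM at 1-2h in wild type (log2 fold change -1.52, SE 0.377, limma adjusted p = 0.0130), and CG43783 overlaps it on the same strand. Gld2, a cytoplasmic poly(A) polymerase gene, was the only member called higher and had 4.24, 2.71 and 2.16 TPM at 2-3h, against 0.498, 0.441 and 0.629 TPM at 1-2h (log2 fold change 1.37, SE 0.221, limma adjusted p = 0.00258), a low level at both times. Its 1-2h mean was under 1 TPM, so it passed the filter through its 2-3h level, and with a mean of 5 TPM or more required, 31 members were tested and none was called higher. The other such polymerase gene, wisp, which acts in the egg, was called lower (log2 fold change -0.97, SE 0.324, limma adjusted p = 0.0389) but lost the call without 2-3h replicate 2 (adjusted p = 0.0723) or any 1 of the 1-2h libraries (adjusted p from 0.0512 to 0.113), and under trimmed mean rescaling (adjusted p = 0.0508).

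Of 31 tested cell cycle genes 14 fell and 4 rose, where 32.3% of all genes were called lower and 20.5% higher, with a median of -0.78. The mitotic phosphatase gene stg (string), whose RNA drives the early divisions, had 58.5, 73.1 and 80.4 TPM at 2-3h, against 221, 290.3 and 231 TPM at 1-2h (log2 fold change -1.79, SE 0.161, limma adjusted p = 0.000635). Its germline relative twe had 42.6, 106 and 165 TPM at 2-3h, against 189.9, 222 and 202 TPM at 1-2h and was not called (log2 fold change -1.16, SE 0.435, limma adjusted p = 0.0576), although all 2-3h libraries lay below the 1-2h libraries; the call was made without 2-3h replicate 1 (-0.62, adjusted p = 0.0286) or 2-3h replicate 3 (-1.59, adjusted p = 0.00593). The checkpoint kinase genes grp and lok fell by 1.76 and 1.82 on the log2 scale, the Cdk inhibitor gene dap by 2.42 and the anaphase activator gene fzr by 1.06. CycB, a mitotic cyclin gene with RNA at the posterior pole, had 487, 807 and 1194 TPM at 2-3h, against 1635, 1826 and 1681 TPM at 1-2h (log2 fold change -1.14, SE 0.289, limma adjusted p = 0.0141). The 4 called higher were CycB3 (0.31), Cdk1 (0.28), fzy (0.49) and Mcm7 (0.60). Only 2 genes of the list were called higher when 2-3h replicate 1, 2-3h replicate 2, 1-2h replicate 2 or 1-2h replicate 3 was left out, and CycB3 and Cdk1 lost their calls in each of these cases.

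BigH1, the embryonic linker histone that the somatic H1 later replaces, had 21.4, 62.7 and 98.4 TPM at 2-3h, against 389, 311 and 272 TPM at 1-2h (log2 fold change -2.62, SE 0.496, limma adjusted p = 0.00446). Its mean was 284 ± 29.7 TPM at 0-1h, 324 ± 59.4 TPM at 1-2h and 60.8 ± 38.6 TPM at 2-3h, so the fall came after 1-2h. Of the other 5 tested histone variant genes, His3.3A (log2 fold change 0.78, SE 0.166, limma adjusted p = 0.00708) and His2Av (log2 fold change 0.30, SE 0.0814, limma adjusted p = 0.0176) rose. The number called higher was 1 without 2-3h replicate 1 or 2-3h replicate 2 and 4 without 1-2h replicate 1, and without 1-2h replicate 1 a second gene of the list was called lower. Replication-dependent histone genes were not in the list.

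**Figure D2:**
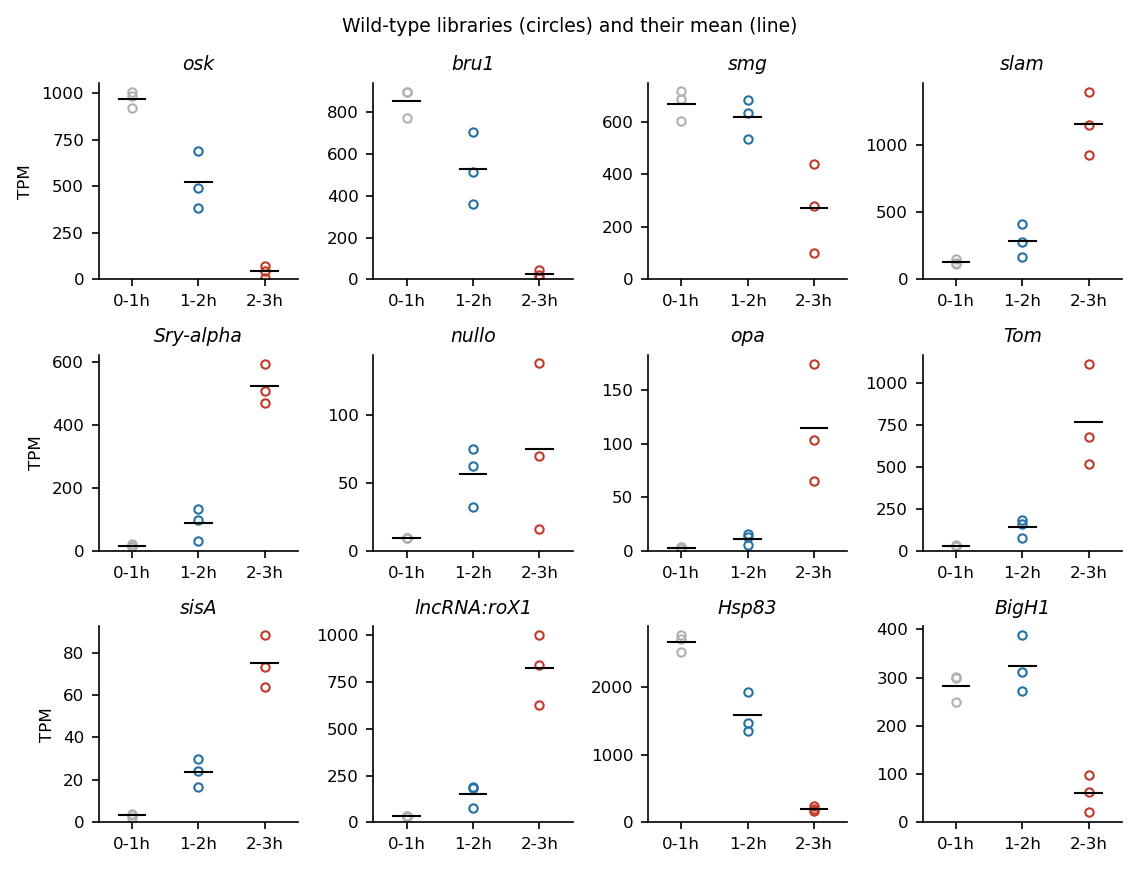
TPM of 12 genes in the wild-type libraries collected at 0-1h, 1-2h and 2-3h, with each circle 1 library, the line their mean, and each vertical axis starting at 0 with its own scale. Hsp83, osk and bru1 were lower at 1-2h than at 0-1h and near 0 on their scale at 2-3h, BigH1 and smg had their lowest means at 2-3h, and nullo spread from 16.0 to 138 TPM within the 2-3h libraries.

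The zygotic genes of cellularization rose in 11 of 12 tested, with a median of 1.93, where 20.5% of all genes were called higher. Slam, which directs membrane growth at the furrows, had 925, 1398 and 1151 TPM at 2-3h, against 278, 167 and 414 TPM at 1-2h (log2 fold change 2.09, SE 0.317, limma adjusted p = 0.00216). Sry-alpha, which shapes the actin network around each nucleus, had 509.5, 596 and 472 TPM at 2-3h, against 98.2, 32.2 and 134 TPM at 1-2h (log2 fold change 2.78, SE 0.471, limma adjusted p = 0.00301). Halo, a regulator of lipid-droplet transport, had 476, 823 and 765 TPM at 2-3h, against 176, 64.5 and 261 TPM at 1-2h (log2 fold change 2.21, SE 0.486, limma adjusted p = 0.00795). In these genes the lowest 2-3h library held more than the highest 1-2h library. Z600 (frühstart), an inhibitor of mitosis after the last rapid division, had 234, 292 and 228 TPM at 2-3h, against 34.1, 13.4 and 82.3 TPM at 1-2h (log2 fold change 2.85, SE 0.560, limma adjusted p = 0.00513), and trbl (tribbles), which promotes loss of String protein, had 220.2, 239.5 and 183 TPM at 2-3h, against 57.8, 35.4 and 66.3 TPM at 1-2h (log2 fold change 2.03, SE 0.236, limma adjusted p = 0.00107). Both rose while stg RNA fell.

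Early members of the same list varied within the 2-3h group. Nullo, which keeps the furrow junctions stable, had 16.0, 70.1 and 138 TPM at 2-3h, against 75.4, 32.3 and 63.0 TPM at 1-2h and was not called (log2 fold change 0.01, SE 0.730, limma adjusted p = 0.988). The lowest of its 6 values was in 2-3h replicate 1 and the highest in 2-3h replicate 3. Bnk (bottleneck), which times the closing of the furrows, had 90.0, 216 and 249.7 TPM at 2-3h, against 71.4, 31.2 and 96.1 TPM at 1-2h. It was called (log2 fold change 1.48, SE 0.501, limma adjusted p = 0.0403) although its groups overlapped, and lost the call without 2-3h replicate 2 (adjusted p = 0.117), 2-3h replicate 3 (adjusted p = 0.0826), 1-2h replicate 1 (adjusted p = 0.0812) or 1-2h replicate 2 (adjusted p = 0.102).

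The genes scw, zen2 and sc, chosen after their values were seen, also had their lowest 2-3h level in replicate 1. Scw (screw), a ligand of the BMP pathway, had 25.4, 72.4 and 125 TPM at 2-3h, against 50.9, 30.9 and 59.8 TPM at 1-2h and was not called (log2 fold change 0.42, SE 0.546, limma adjusted p = 0.539). Its change was 1.05 with an adjusted p of 0.0308 without 2-3h replicate 1 and -0.08 without 2-3h replicate 3. The homeobox gene zen2 had 4.27, 15.9 and 24.7 TPM at 2-3h, against 7.35, 6.80 and 13.6 TPM at 1-2h, with 1.08 and an adjusted p of 0.0334 without 2-3h replicate 1. The sex-counting and proneural gene sc had 3.33, 9.91 and 24.8 TPM at 2-3h, against 10.2, 10.6 and 14.2 TPM at 1-2h. Other genes, also picked with their values known, had other orders: sry-alpha was lowest in 2-3h replicate 3, and the X-counting gene sisA was highest in 2-3h replicate 1. Whether the time at which a gene is first transcribed goes with its order was not tested.

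The 10 genes with the largest rises, by the same rule as for falls, were opa, lov, CG12420, KP78b, Mdr49, danr, lncRNA:bxd, Ptr, Pka-C3 and ptc. The largest was that of opa (odd paired), a zinc-finger factor that acts late in the pair-rule cascade, annotated on chromosome 3R at 4852813 to 4869979 on the plus strand. It had 174, 103 and 65.3 TPM at 2-3h, against 15.7, 5.57 and 12.7 TPM at 1-2h (log2 fold change 3.22, SE 0.450, limma adjusted p = 0.00169). Lov, a BTB-domain factor gene, had 110.2, 93.9 and 56.7 TPM at 2-3h, against 11.4, 3.48 and 15.3 TPM at 1-2h (log2 fold change 3.13, SE 0.495, limma adjusted p = 0.00245). Mdr49, a membrane transporter gene of the ABC family, had 258, 182 and 128 TPM at 2-3h, against 32.9, 8.53 and 31.2 TPM at 1-2h (log2 fold change 3.07, SE 0.507, limma adjusted p = 0.00279). In all 10 genes the highest 2-3h library was replicate 1 and the lowest replicate 3, and the lowest 1-2h library was replicate 2.

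Ptr, which encodes a membrane protein related to Patched, was the most abundant of the 10 with 558, 465 and 325 TPM at 2-3h, against 74.0, 23.4 and 86.2 TPM at 1-2h (log2 fold change 3.02, SE 0.472, limma adjusted p = 0.00236). The long non-coding RNA bxd, from the regulatory region of the bithorax complex, had 128, 80.6 and 58.3 TPM at 2-3h, against 13.2, 4.56 and 13.4 TPM at 1-2h (log2 fold change 3.03, SE 0.439, limma adjusted p = 0.00185). Danr, a DNA-binding factor gene with 1 exon, changed by 3.06, the kinase genes KP78b and Pka-C3 by 3.09 and 3.01, and CG12420 by 3.10. KP78b overlaps pros on the opposite strand and KP78a on the same strand. Mdr49 overlaps Sans on the opposite strand, and lncRNA:bxd overlaps CG31275 on the same strand. Reads of KP78b, Mdr49 and lncRNA:bxd are therefore uncertain. The means of all 10 genes at 0-1h were between 1.14 and 14.3 TPM, below their means at 1-2h.

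The segmentation genes rose almost without exception. Of 11 tested gap genes, the first zygotic genes to divide the anterior-posterior axis, 9 were called higher with a list median of 2.24. Over all genes 20.5% were called higher. Kr (Krüppel) had 155, 156 and 126 TPM at 2-3h, against 28.3, 13.4 and 40.4 TPM at 1-2h (log2 fold change 2.49, SE 0.359, limma adjusted p = 0.00183). Kni had 68.0, 85.2 and 72.4 TPM at 2-3h, against 14.3, 7.90 and 23.3 TPM at 1-2h (log2 fold change 2.35, SE 0.348, limma adjusted p = 0.00198), and gt had 46.3, 60.5 and 57.5 TPM at 2-3h, against 11.9, 5.71 and 17.5 TPM at 1-2h (log2 fold change 2.24, SE 0.363, limma adjusted p = 0.00261). For these 3 genes every 2-3h library lay well above every 1-2h library. The head gap gene oc (orthodenticle) rose by 2.61, and tll, which patterns the termini, by 1.9. Hb (hunchback), which has maternal RNA as well as zygotic transcripts, had 111, 189 and 200.4 TPM at 2-3h, against 91.0, 115.2 and 133 TPM at 1-2h and was not called (log2 fold change 0.53, SE 0.248, limma adjusted p = 0.109); without 2-3h replicate 1 its change was 0.79 with an adjusted p of 0.00666. Cnc, a head segmentation gene that the mother also supplies, was called lower (log2 fold change -1.89, SE 0.199, limma adjusted p = 0.000856), and its mean was 105 ± 5.77 TPM at 0-1h, 86.5 ± 14.4 TPM at 1-2h and 22.7 ± 4.83 TPM at 2-3h.

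All 9 tested pair-rule genes rose, where 20.5% of all genes were called higher. The median was 2.42, with a range from 1.80 for run to 3.22 for opa. Eve had 58.1, 55.0 and 47.2 TPM at 2-3h, against 12.5, 7.89 and 12.4 TPM at 1-2h (log2 fold change 2.21, SE 0.220, limma adjusted p = 0.000728). Ftz had 58.7, 43.7 and 39.7 TPM at 2-3h, against 9.80, 5.10 and 9.53 TPM at 1-2h (log2 fold change 2.43, SE 0.283, limma adjusted p = 0.00107). Prd, which acts on the segment-polarity genes, had 106, 58.4 and 47.1 TPM at 2-3h, against 10.9, 5.65 and 9.88 TPM at 1-2h (log2 fold change 2.82, SE 0.356, limma adjusted p = 0.00131). The groups did not overlap in any of the 9. Of all genes tested, 28.1% had every 2-3h library above every 1-2h library. The primary pair-rule genes eve, hry and run changed by 2.21, 2.42 and 1.80, and the later-acting odd, slp1 and slp2 by 2.56, 1.81 and 2.00.

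All 9 tested segment-polarity genes, which fix the pattern within each segment, rose with a median of 2.02. Over all genes 20.5% were called higher. The 1-2h mean of 1 of the 9 was under 1 TPM, so that gene passed the filter through its 2-3h level. With a mean of 5 TPM or more required, 8 of 8 tested members were called higher. The Hedgehog pathway members ptc, the receptor of Hedgehog, and ci, its transcription factor, had the largest changes of the list. Ptc had 175, 126 and 79.7 TPM at 2-3h, against 18.5, 7.85 and 20.2 TPM at 1-2h (log2 fold change 2.98, SE 0.404, limma adjusted p = 0.00155). Ci had 228, 148 and 94.2 TPM at 2-3h, against 27.4, 12.8 and 23.7 TPM at 1-2h (log2 fold change 2.80, SE 0.379, limma adjusted p = 0.00155). The ligand gene hh was much lower, with 12.0, 8.04 and 4.96 TPM at 2-3h, against 3.05, 1.25 and 2.10 TPM at 1-2h (log2 fold change 1.55, SE 0.347, limma adjusted p = 0.00865). In the Wnt pathway the ligand gene wg changed by 2.02 and its feedback inhibitor nkd by 2.60. En and inv, neighbouring homeobox genes, changed by 1.78 and 1.09. Gsb-n was listed only at 2-3h with 0.556, 0.501 and 0.392 TPM, and H15 was in neither table.

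All 6 tested Hox genes rose, with a median of 1.55, where 20.5% of all genes were called higher. Their levels stayed low, and of all tested genes with a mean of 1 to 5 TPM 55.8% were called higher. With a mean of 5 TPM or more required, 2 of 2 tested Hox genes were called higher. Antp, the most abundant, had 21.2, 12.9 and 8.29 TPM at 2-3h, against 3.34, 1.94 and 3.14 TPM at 1-2h (log2 fold change 1.92, SE 0.346, limma adjusted p = 0.00374). Ubx had 6.85, 5.94 and 3.89 TPM at 2-3h, against 1.92, 1.03 and 1.32 TPM at 1-2h (log2 fold change 1.43, SE 0.249, limma adjusted p = 0.00333). Abd-B, the most posterior in its action, had 5.52, 4.58 and 3.08 TPM at 2-3h, against 1.33, 0.948 and 1.22 TPM at 1-2h (log2 fold change 1.29, SE 0.223, limma adjusted p = 0.00320). The Antp value in 2-3h replicate 1 was the highest of any member in any library. Lab and pb were listed at both times with a mean under 1 TPM over the 6 libraries and were not tested. Scr, with a mean of 0.829 TPM at 1-2h, passed that filter through its 2-3h level, and the same holds for 292 of the 1555 genes called higher, whose mean at 1-2h was under 1 TPM.

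Along the dorsal-ventral axis, genes were listed by germ layer. In the mesoderm list 10 of 16 tested genes were called higher and none lower, with a median of 1.56. Over all genes 20.5% were called higher and 32.3% lower. The 1-2h mean of 1 of the 16 was under 1 TPM, so that gene passed the filter through its 2-3h level. With a mean of 5 TPM or more required, 8 of 14 tested members were called higher. Twi, the factor that starts the mesoderm programme, had 68.1, 57.4 and 45.7 TPM at 2-3h, against 11.9, 4.13 and 11.7 TPM at 1-2h (log2 fold change 2.60, SE 0.381, limma adjusted p = 0.00191). Sna, which represses neural fate there, had 103, 88.7 and 76.4 TPM at 2-3h, against 19.2, 10.8 and 24.2 TPM at 1-2h (log2 fold change 2.30, SE 0.288, limma adjusted p = 0.00129). Htl, an FGF receptor gene, had 47.8, 25.6 and 17.6 TPM at 2-3h, against 5.24, 2.62 and 4.53 TPM at 1-2h (log2 fold change 2.53, SE 0.390, limma adjusted p = 0.00225). These mesoderm genes were each under 35 TPM in all 1-2h libraries, whereas genes that fold the ventral furrow had 1-2h values above or within their 2-3h range. Fog, the secreted signal for apical constriction, had 11, 13.5 and 16.8 TPM at 2-3h, against 16.9, 21.1 and 22.5 TPM at 1-2h and was not called (log2 fold change -0.53, adjusted p = 0.0807); without 2-3h replicate 3 it was called lower (-0.68, adjusted p = 0.0475). The G protein gene cta had 37.9, 65.3 and 105 TPM at 2-3h, against 95.2, 112 and 112 TPM at 1-2h (log2 fold change -0.72, SE 0.331, limma adjusted p = 0.103); without 2-3h replicate 3 it too was called lower (-1.08, adjusted p = 0.00678). The membrane protein gene T48 changed by -0.36 and was called lower without 2-3h replicate 1 (-0.61, adjusted p = 0.0381).

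Among 15 tested neuroectoderm genes 13 were called higher, with a median of 1.60, where 20.5% of all genes were called higher. Of the 15, 2 had a 1-2h mean under 1 TPM and passed the filter through their 2-3h level. With a mean of 5 TPM or more required, 8 of 9 tested members were called higher. Sog, the BMP antagonist, had 167, 140.1 and 96.5 TPM at 2-3h, against 25.6, 8.20 and 29.4 TPM at 1-2h (log2 fold change 2.76, SE 0.457, limma adjusted p = 0.00279). D (Dichaete), a Sox factor gene, was the most abundant of the list with 255, 285 and 260.1 TPM at 2-3h, against 46.1, 18.6 and 86.4 TPM at 1-2h (log2 fold change 2.63, SE 0.476, limma adjusted p = 0.00378). Brk, which represses BMP targets, had 55.4, 45.6 and 33.3 TPM at 2-3h, against 9.18, 3.19 and 10.1 TPM at 1-2h (log2 fold change 2.52, SE 0.404, limma adjusted p = 0.00251). The proneural genes ac and sc were the 2 not called, and l(1)sc of the same complex was called (log2 fold change 0.91, SE 0.239, limma adjusted p = 0.0162), a call lost without 2-3h replicate 2 (adjusted p = 0.0648) or 1-2h replicate 3 (adjusted p = 0.0542).

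Among 17 tested dorsal ectoderm genes 14 were called higher, with a median of 1.99, where 20.5% of all genes were called higher. The BMP ligand gene dpp had 20.0, 24.3 and 18.7 TPM at 2-3h, against 5.73, 1.95 and 6.66 TPM at 1-2h (log2 fold change 2.04, SE 0.374, limma adjusted p = 0.00398). Tld, the protease that frees BMP ligands from Sog, had 100.2, 125 and 117 TPM at 2-3h, against 34.2, 15.4 and 40.5 TPM at 1-2h (log2 fold change 1.99, SE 0.335, limma adjusted p = 0.00292). Egr, a tumour necrosis factor ligand gene, had the largest change of the list with 131, 112 and 74.7 TPM at 2-3h, against 16.5, 6.40 and 21.1 TPM at 1-2h (log2 fold change 2.88, SE 0.420, limma adjusted p = 0.00189). The 3 genes not called were zen2, scw and tsg. Tsg, which shapes the BMP gradient and is known for its early transcription, had 86.1, 135 and 155 TPM at 2-3h, against 98.9, 53.9 and 90.8 TPM at 1-2h (log2 fold change 0.62, SE 0.291, limma adjusted p = 0.108); it was called without 2-3h replicate 1 (0.87, adjusted p = 0.0242).

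All 13 tested members of the Enhancer of split and Bearded families, targets and modulators of Notch signalling, rose with a median of 1.53. The median over all genes was -0.16, with 20.5% called higher. Of the 13 calls, 10 were made whichever library was left out. Levels of the members were far apart. The Bearded-family genes Tom and BobA were the most abundant, Tom with 1117, 682 and 516 TPM at 2-3h, against 182, 79.7 and 158 TPM at 1-2h (log2 fold change 2.46, SE 0.372, limma adjusted p = 0.00212) and BobA with 943, 611 and 537 TPM at 2-3h, against 189, 86.6 and 164 TPM at 1-2h (log2 fold change 2.27, SE 0.324, limma adjusted p = 0.00178). The copies BobB and BobC were not analysed here, and reads can be shared among such near-identical genes, so the level of BobA is uncertain. E(spl)m3-HLH, a repressor of the bHLH class, was at the other end with 1.96, 1.55 and 1.54 TPM at 2-3h, against 1.04, 0.585 and 0.305 TPM at 1-2h (log2 fold change 0.73, SE 0.207, limma adjusted p = 0.0215), and lost its call without 2-3h replicate 2 (adjusted p = 0.0598), 1-2h replicate 2 (adjusted p = 0.059) or 1-2h replicate 3 (adjusted p = 0.083). Its 1-2h mean was under 1 TPM, so it passed the filter through its 2-3h level, and with a mean of 5 TPM or more required, 8 of 8 tested members were called higher.

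Of 17 tested genes that count X chromosomes or carry out dosage compensation, 10 were called higher and none lower, with a median of 1.30. The shares over all genes were 20.5% higher and 32.3% lower, and 9 of the 10 calls were made whichever library was left out. The X-linked counting gene sisA had 88.2, 73.3 and 63.8 TPM at 2-3h, against 29.8, 16.6 and 24.2 TPM at 1-2h (log2 fold change 1.66, SE 0.238, limma adjusted p = 0.00181), and upd1, a JAK/STAT ligand gene that also counts X chromosomes, had 28.9, 50.8 and 49.6 TPM at 2-3h, against 12.7, 6.98 and 20.7 TPM at 1-2h (log2 fold change 1.68, SE 0.396, limma adjusted p = 0.0104). Sxl, the switch gene of sex determination, had 631, 491 and 347 TPM at 2-3h, against 184, 142 and 181 TPM at 1-2h (log2 fold change 1.5, SE 0.221, limma adjusted p = 0.00197), with 189 TPM on average already at 0-1h. Of the dosage compensation genes, msl-2 had 147, 110.3 and 84.3 TPM at 2-3h, against 26.5, 7.68 and 24.9 TPM at 1-2h (log2 fold change 2.61, SE 0.455, limma adjusted p = 0.00333). The non-coding RNA roX1, which guides the complex to the X chromosome, had 1002, 839 and 628 TPM at 2-3h, against 186, 78.4 and 188 TPM at 1-2h (log2 fold change 2.52, SE 0.350, limma adjusted p = 0.00166), and its partner roX2 was lower with 14.0, 12.7 and 16.9 TPM at 2-3h, against 3.68, 5.6 and 4.01 TPM at 1-2h (log2 fold change 1.52, SE 0.223, limma adjusted p = 0.00193). Msl-1, the maternally supplied partner of msl-2, had 76.6, 116 and 136 TPM at 2-3h, against 141, 173 and 159.9 TPM at 1-2h and was not called (log2 fold change -0.56, SE 0.212, limma adjusted p = 0.0610); without 2-3h replicate 3 it was called lower (-0.73, adjusted p = 0.0164). The labels give no sex for the pooled embryos.

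**Figure D3:**
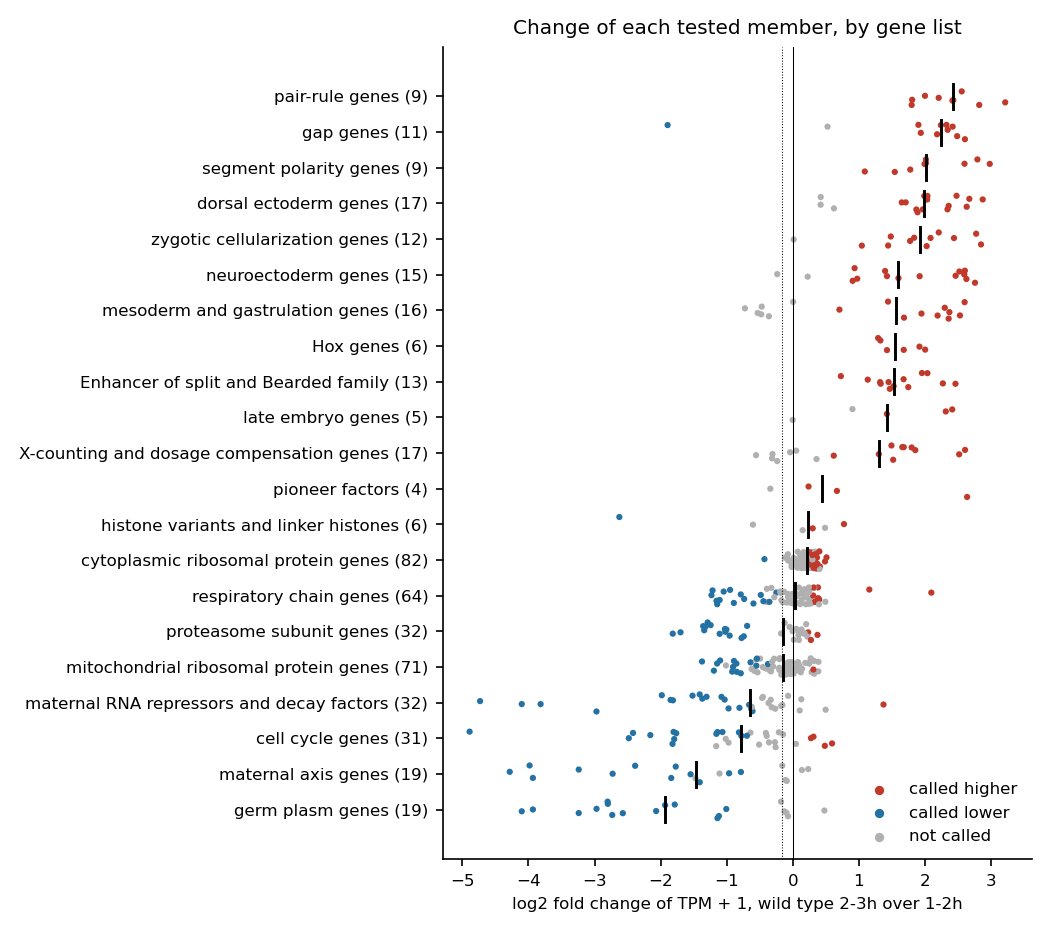
Change of every tested member of 21 gene lists, as the log2 fold change of TPM + 1 in wild type at 2-3h over 1-2h, with 1 point a gene, a black bar at each list's median, the number tested in brackets and a dotted line at the median of all genes tested (-0.16). Red points were called higher, blue points called lower and grey points not called; the lists of segmentation genes lie at the top and the germ plasm and maternal axis lists at the bottom.

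The spread within each time was shared across genes. Among the 1555 genes called higher, 2-3h replicate 1 was the highest 2-3h library for 78.6% and 1-2h replicate 2 the lowest 1-2h library for 62.3%. Among the 2448 genes called lower, 2-3h replicate 1 was the lowest 2-3h library for 62.5% and 1-2h replicate 2 the highest 1-2h library for 90.2%. For maternal axis genes the median deviation from a gene's own mean over the 6 libraries was -1.37, -0.50 and 0.02 in the 2-3h libraries, against 0.57, 0.95 and 0.75 in the 1-2h libraries. For Hox genes it was 1.20, 0.80 and 0.35, against -0.60, -0.96 and -0.81. For the cellularization genes it was 0.68, 1.16 and 1.16, against -0.78, -1.69 and -0.43, so that 2-3h replicate 1 was the lowest 2-3h library of this list and the highest for Hox and pair-rule genes. The part of embryo age within a collection in this spread was not tested, as no sample carries an exact age.

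**Figure D4:**
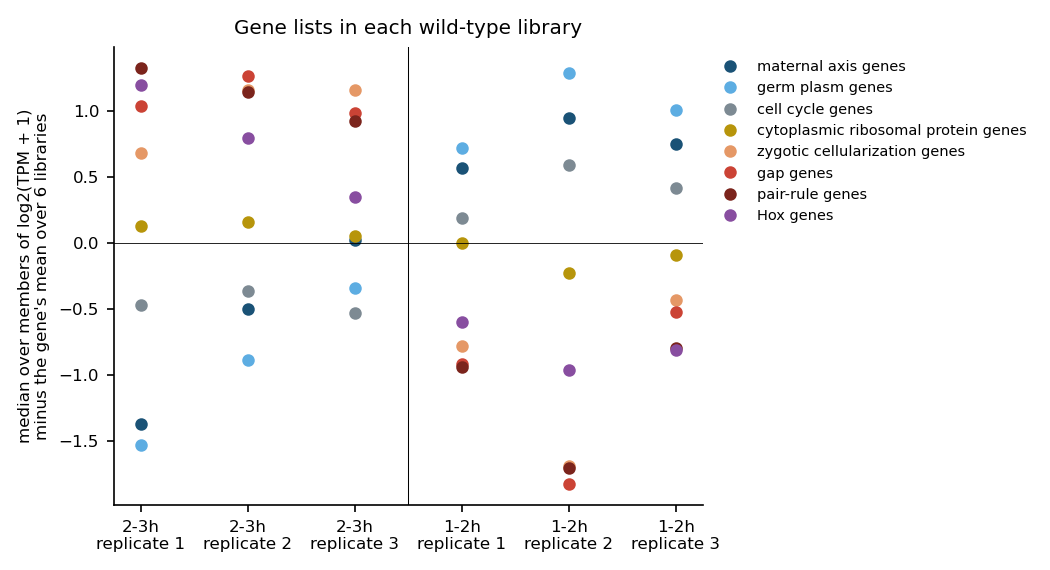
Median over the tested members of 8 gene lists of log2(TPM + 1) minus the gene's own mean over the 6 wild-type libraries, for the 3 libraries at 2-3h (left) and the 3 at 1-2h (right). Maternal axis genes lie at -1.37 in 2-3h replicate 1 and at 0.02 in 2-3h replicate 3, and 1-2h replicate 2 has the lowest values for segmentation and cellularization genes.

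Among 4 tested pioneer factor genes, whose products open chromatin ahead of transcription, zld (log2 fold change 0.67, SE 0.119, limma adjusted p = 0.00357) rose, with 192, 213 and 192 TPM at 2-3h, against 109, 128 and 139 TPM at 1-2h. Grh, which acts in epithelia, rose more, with 60.6, 42.6 and 31.8 TPM at 2-3h, against 7.56, 3.73 and 7.98 TPM at 1-2h (log2 fold change 2.64, SE 0.338, limma adjusted p = 0.00135). Trl, encoding GAGA factor, was also called higher (log2 fold change 0.24, SE 0.0851, limma adjusted p = 0.0476) but lost the call when any 2-3h library, 1-2h replicate 2 or 1-2h replicate 3 was left out (adjusted p from 0.0786 to 0.18). Clamp was not called (-0.34, adjusted p = 0.186).

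Of 82 tested cytoplasmic ribosomal protein genes 26 were called higher and 1 lower, with a median of 0.21 and no change of 2-fold, where 20.5% of all genes were called higher and 32.3% lower. The count called higher depended on single libraries: it was 5 without 2-3h replicate 2, 12 without 1-2h replicate 2, 13 without 2-3h replicate 1, 17 without 1-2h replicate 3 and 43 without 1-2h replicate 1. RpL38 was the only member called lower (log2 fold change -0.43, SE 0.0840, limma adjusted p = 0.00510), and lost the call under trimmed mean rescaling (-0.27, adjusted p = 0.0832). Of 71 tested mitochondrial ribosomal protein genes 14 were called lower and 1 higher, a smaller share in each direction than over all genes, with a median of -0.15 close to that of all genes; 9 were called lower without 2-3h replicate 2 or 1-2h replicate 3. MRpL12 fell the most, with 18.4, 19.2 and 24.9 TPM at 2-3h, against 40.1, 70.5 and 59.0 TPM at 1-2h (log2 fold change -1.37, SE 0.240, limma adjusted p = 0.00337).

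The proteasome, which degrades tagged proteins, is built of a core particle with the proteolytic sites and a regulatory particle that unfolds substrates. Over the 32 tested subunit genes 15 were called lower and 3 higher, where 32.3% of all genes were called lower and 20.5% higher. The median was -0.15, close to the -0.16 of all genes. When the list was divided by particle, a division made after the values were seen, all 15 called lower belonged to the 18 genes of the regulatory particle (median -1.02) and all 3 called higher to the 14 genes of the core particle (median 0.09). The share of core genes called higher was close to that over all genes. Rpn8, a lid subunit gene, had 23.7, 20.3 and 19.6 TPM at 2-3h, against 57.6, 105 and 75 TPM at 1-2h (log2 fold change -1.82, SE 0.231, limma adjusted p = 0.00135), and the ATPase gene Rpt3 had 117, 116 and 128 TPM at 2-3h, against 317, 324 and 278 TPM at 1-2h (log2 fold change -1.34, SE 0.101, limma adjusted p = 0.000567). The core gene Prosbeta7 had 239, 244 and 257 TPM at 2-3h, against 164, 205 and 204 TPM at 1-2h (log2 fold change 0.38, SE 0.113, limma adjusted p = 0.0272). The same 15 genes were called lower whichever library was left out, whereas the calls higher numbered 0 without 2-3h replicate 2 or 2-3h replicate 3, 1 without 2-3h replicate 1 or 1-2h replicate 3, and 8 under trimmed mean rescaling. Rpt4, Rpn12 and Rpn6 were the regulatory genes not called.

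**Figure D5:**
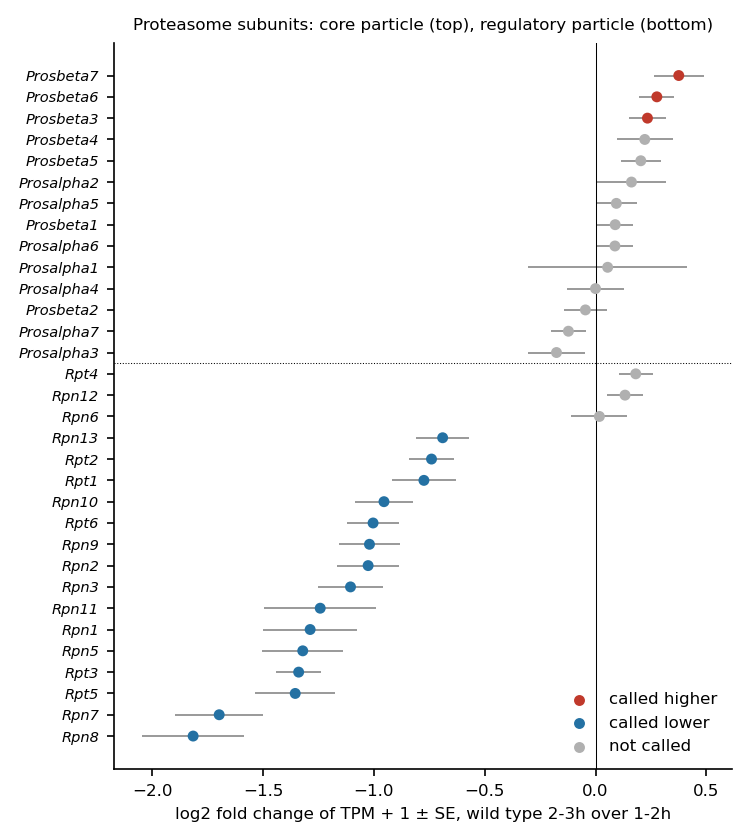
Log2 fold change of TPM + 1 in wild type, 2-3h over 1-2h, with its standard error, for 32 proteasome subunit genes, core particle above the dotted line and regulatory particle below it. The 15 genes called lower (blue) are all in the regulatory particle, between -1.82 and -0.69, and the 14 core genes lie between -0.18 and 0.38.

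Of 64 tested respiratory chain genes 15 were called lower and 9 higher, where 32.3% of all genes were called lower and 20.5% higher, with a median of 0.03. The 1-2h mean of 1 of the 64 was under 1 TPM, so that gene passed the filter through its 2-3h level. With a mean of 5 TPM or more required, 63 members were tested, and 15 were called lower and 7 higher. ATPsyngamma, of the ATP synthase, fell the most, with 83.5, 102 and 126 TPM at 2-3h, against 230.4, 269 and 226 TPM at 1-2h (log2 fold change -1.23, SE 0.163, limma adjusted p = 0.00147), and ND-51, of complex I, changed by -1.21. Trimmed mean rescaling gave 18 higher, and leaving out 2-3h replicate 2 or 1-2h replicate 2 gave 2 higher.

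The 1032 genes listed at 2-3h and not at 1-2h had a median of 0.481 TPM over the 3 wild-type libraries, and 294 reached a mean of 1 TPM, 30 of 5 TPM and 14 of 10 TPM. Together they took 0.144%, 0.124% and 0.101% of TPM. An absence from the 1-2h table gives no level there, so no fold change was computed. How genes were chosen for a table was not tested, and 10 of the genes were listed at 0-1h. Non-coding RNA genes made up 15.6% of them, against 2.51% of the genes tested, and 611 of the 1032 were highest in replicate 1.

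Of the 10 with the highest level, 9 were small nucleolar RNAs, which guide chemical modification of ribosomal and other RNAs, and 1 was the stable intronic RNA sisRNA:CR46361. SnoRNA:Psi28S-1180, 145 nt long, had 26.9, 60.6 and 49.7 TPM, and snoRNA:Psi28S-2442b had 48.4, 29.4 and 20.6 TPM. The remaining 7 snoRNAs averaged from 19.9 to 27.0 TPM, and sisRNA:CR46361 had 20.7, 17.7 and 10.7 TPM. The 9 snoRNAs were 136 to 156 nt long, and TPM of such short RNAs depend strongly on the effective length used. Each lies within a host gene on the same strand in the annotation. The host of Psi28S-1180, tou, was called higher (log2 fold change 0.49, SE 0.141, limma adjusted p = 0.0223), a call lost without 2-3h replicate 2 (adjusted p = 0.081), 1-2h replicate 1 (adjusted p = 0.0556) or 1-2h replicate 2 (adjusted p = 0.0526). The host of Psi28S-1837a, CG10576, was called lower (log2 fold change -1.64, SE 0.190, limma adjusted p = 0.00107). The host of sisRNA:CR46361, jing, was called higher (log2 fold change 1.13, SE 0.146, limma adjusted p = 0.00137). Counted once each, the 9 hosts of the 10 RNAs had 6 genes called higher, 1 called lower (CG10576) and 2 not called. Over all genes tested 20.5% were called higher and 32.3% lower. Of the calls higher, those of Hrb98DE, SC35 and RpS5a were near the threshold (limma adjusted p = 0.0284, 0.0294 and 0.0408). The RNAs were picked for their 2-3h level, and a link between them and their hosts was not tested.

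Protein-coding genes listed only at 2-3h were at lower levels; those named here were chosen after their values were seen. CG43800 had 6.56, 9.62 and 4.51 TPM, Argp had 9.65, 6.17 and 4.64 TPM and BaraC had 6.75, 5.85 and 5.32 TPM. The antimicrobial-peptide-like gene Drsl5 had 7.24, 2.60 and 3.96 TPM in wild type, against 0.957, 0.412 and 0 TPM in orb2-delta-zz at 2-3h. CG7763 had 5.18, 4.94 and 3.83 TPM in wild type, against 1.94, 1.20 and 0.956 TPM in orb2-delta-zz. For both genes every wild-type library was above every orb2-delta-zz library, with no test run on this difference. How many of the 1032 genes had the genotypes apart in either direction was not counted, so the separation of these 2 has no background to be set against.

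Markers of later embryos were used to look for older embryos in the collections. Of 20 such genes of muscle, neuron and cuticle, 5 were tested, 8 were listed only at 2-3h and 7 were in neither table. The neuronal RNA-binding gene elav rose (log2 fold change 2.42, SE 0.319, limma adjusted p = 0.00147), with 47.5, 29.4 and 22.1 TPM at 2-3h, against 5.97, 3.70 and 5.86 TPM at 1-2h. Mlp84B (2.32) and Act87E (1.43) also rose, Act87E with 39.7, 30.0 and 18.6 TPM at 2-3h, against 10.7, 12.9 and 6.78 TPM at 1-2h. The muscle gene Act57B had 5.33, 2.64 and 13.0 TPM at 2-3h, against 1.03, 23.2 and 0 TPM at 1-2h, and Mlc2 had 1.98, 1.10 and 2.80 TPM at 2-3h, against 0.658, 10.2 and 0.279 TPM at 1-2h; for both 1-2h replicate 2 held the highest of the 6 values, and neither was called. Without 1-2h replicate 2 both were called higher (Act57B 2.27, limma adjusted p = 0.0255, and Mlc2 0.98, limma adjusted p = 0.0389), which made 5 of 5. In that fit 1260 of the 7573 genes tested were called higher, against 1555 (20.5%) with all 6 libraries. Mhc was listed only at 2-3h with 0.739, 0.0485 and 2.42 TPM. The muscle genes Mlc1 (0.549, 0 and 2.32 TPM) and Tm2 (0.446, 0 and 1.38 TPM), chosen after their values were seen, were also listed only at 2-3h. Like Mhc they were highest in replicate 3 and lowest in replicate 2, whereas elav and Act87E were highest in replicate 1. The part of such transcripts in the changes of other genes was not tested.

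The same interval was measured in orb2-delta-zz embryos, and the change in wild type was set against the change there in a limma interaction over 12 libraries. Of 7585 genes tested 11 were called (0.145%), 9 with a higher change in wild type (0.119%) and 2 with a lower one (0.0264%), and 407 had an unadjusted p under 0.05. The test rests on few libraries: the count was 1 without wild-type 2-3h replicate 2, 2 without wild-type 1-2h replicate 3, 6 without orb2-delta-zz 2-3h replicate 2, 7 without orb2-delta-zz 2-3h replicate 3 and 71 without wild-type 2-3h replicate 1. In the simulated data on which the test was checked it made more false calls than its threshold allows.

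CG6180 was the only gene of the 11 that also passed without wild-type 2-3h replicate 2. It overlaps CG15484 on the opposite strand, so its level is uncertain. In wild type it had 249, 314 and 357 TPM at 2-3h, against 507, 441 and 428 TPM at 1-2h. In orb2-delta-zz it had 10.9, 10.1 and 10.2 TPM at 2-3h, against 91.7, 96.1 and 94.4 TPM at 1-2h. The gene was lower at both times in orb2-delta-zz, and its change there was -3.06, against -0.59 in wild type (difference 2.47, SE 0.156, limma adjusted p = 1.24e-05). Ten-a, which encodes a teneurin of neural wiring, went the other way: its change was 0.64 in wild type, against 2.82 in orb2-delta-zz (difference -2.19, SE 0.355, limma adjusted p = 0.0377). The Ten-a call was lost in 9 of 18 alternatives, with an adjusted p from 0.006 to 1 over them, and 4 named genes and a non-coding RNA overlap it on the same strand, so its level is uncertain. CG17470, CG5096 and CG31431 changed by 1.31, 0.90 and 0.56 in wild type, against -1.29, -1.49 and -1.64 in orb2-delta-zz. Their 1-2h means were 1.30, 1.25 and 1.74 TPM in wild type, against 31.4, 28.5 and 17.2 TPM in orb2-delta-zz. The genotypes thus already differed in level at 1-2h. CG5096 overlaps gny on the same strand, so its level is uncertain too.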

How the data were processed

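Ribosomal RNA and other abundant non-coding RNAs were removed from total embryo RNA before directional libraries were built, per the labels' protocols. The submitters' processing notes name Trim Galore 0.6.5, Salmon 1.9.1 and DESeq2 1.42.1. No source used here gives the genome build or annotation. The authors deposited TPM per gene for each time point in its own table, and a second set of tables holds normalized values that behave as a signal scaled between libraries, described as deposited by the authors; these were used only to check scaling. TPM keep no depth, so the reads behind each value are unknown and their number limits the precision.

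Each TPM column sums to nearly the same total (998329 to 999093 over the libraries), and the length term, TPM over normalized value, differed by under 0.1 log2 between the tables for 96.7% of 7781 genes; 19 genes differed by 0.5 or more, 10 of them called. TPM of different tables were therefore tested together. Genes in both tables with a mean of 1 TPM or more over the 6 libraries (7573) were tested on log2(TPM + 1) with limma 3.58.1 in R 4.3.3 (trended variance, two-sided, Benjamini-Hochberg over all genes tested, threshold 0.05). The interaction used 12 libraries and a weight per group. Both were tested on simulated data. Symbols and positions come from Ensembl release 115 (BDGP6.54), which held 9155 of 9220 identifiers. Genes were named by list membership or as the 10 largest rises and falls (called, groups apart, mean of 10 TPM or more in either group), the 10 highest listed only at 2-3h and the 5 largest called interactions. Members and lists were chosen with earlier results of these data known. Pseudocounts, filters, rescaling, a replicate block, library weights, thresholds and leaving out each library were tried as alternatives. No pair of libraries of the same group was identical over all genes.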

Additional observations from a re-analysis of the deposited data

Results flagged for a closer look

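The test of the difference in change between wild type and orb2-delta-zz called 11 genes, a count that was 1 without wild-type 2-3h replicate 2, 2 without wild-type 1-2h replicate 3 and 71 without wild-type 2-3h replicate 1. The 5 largest with a mean of 10 TPM or more in a group had differences, wild type minus orb2-delta-zz on the log2(TPM + 1) scale, of 2.60 for CG17470, 2.47 for CG6180, 2.39 for CG5096, 2.21 for CG31431 and -2.19 for Ten-a. CG17470 had 6.60, 3.86 and 3.79 TPM at 2-3h in wild type, against 1.70, 1.45 and 0.754 TPM at 1-2h, and 11.3, 12.3 and 13.3 TPM at 2-3h in orb2-delta-zz, against 30.8, 31.0 and 32.5 TPM at 1-2h. Ten-a had 17.4, 14.3 and 11 TPM at 2-3h in wild type, against 8.91, 7.59 and 9.45 TPM at 1-2h, and 28.9, 29.1 and 35.3 TPM at 2-3h in orb2-delta-zz, against 3.81, 4.25 and 2.65 TPM at 1-2h. Without wild-type 2-3h replicate 2 the adjusted p was 0.0699 for CG17470, 0.8 for CG5096, 0.526 for CG31431 and 1 for Ten-a. Over 18 alternatives CG6180 lost its call in 0, CG17470 in 1, CG31431 in 2, CG5096 in 3 and Ten-a in 9.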

How the results depend on the processing

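The counts of 4003 called, 1555 higher and 2448 lower kept within 1.5 times under other pseudocounts, filters and rescaling. They were 6891, 2764 and 4127 with a weight per library, a fit that did not converge and gave 2-3h replicate 2 a weight of 487; 2554, 967 and 1587 at a threshold of 0.01; and 2481, 883 and 1598 with a 2-fold minimum. Leaving out 1 library gave 2884 to 4128 called, 1076 to 1515 higher and 1808 to 2613 lower. Replicate numbers were taken as names only: deviations of same-numbered libraries correlated at 0.19, -0.14 and -0.08, and 1 of 3 numbers correlated best with itself. The fit with the replicate block gave 3925 called (1458 higher, 2467 lower) and 9 in the interaction. The interaction's 11 became 6 at a pseudocount of 0.1, 19 with no filter, 21 with rescaling, 18 with 1 shared spread and 1 to 71 without 1 library. The 1032 genes listed only at 2-3h became 294 at 1 TPM or more. Uncalled genes whose sign turned when 1 library was left out ranged from -0.654 to 0.866 (nullo), -0.08 to 1.045 (scw), -0.059 to 1.084 (zen2), -0.87 to 0.416 (sc), -0.032 to 2.266 (Act57B) and -0.586 to 0.981 (Mlc2); Mlc2 was also 0.429 at a pseudocount of 0.1, 0.108 rescaled and 0.61 weighted. Beyond the constructions named, the cause was not tested. Depth is unknown, so genes near 1 TPM are the least certain.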

Other observations

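Genes on the X chromosome lost share more often than those elsewhere. Of 1311 tested X-linked genes 39.3% were called lower and 15.8% higher, with a median change of -0.36; on the arms of the large autosomes 31.0% of 6135 genes were called lower and 21.5% higher, with a median of -0.13. The small chromosome 4 had 70 tested genes, of which 15.7% were called lower and 21.4% higher, with a median of 0.08. The X-linked median was below the autosomal median under every setting tried. No test of the difference between chromosomes was run.

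Calls also varied with gene span in the annotation, with no test run and no steady order. Genes of 20000 bases or more were called higher in 32.8% and lower in 27.3%, those of 2000 to 5000 bases in 18.2% and 38.0%, and those under 1000 bases in 17.4% and 20.0%, with medians of -0.07, -0.31 and 0.02. Among protein-coding genes called higher 12.6% had a single exon, against 6.81% of those called lower and 9.45% of all tested. Of genes with a mean of 1 to 5 TPM 55.8% were called higher, a class that the filter fills partly through the 2-3h level, and of the 136 genes with a mean of 1000 TPM or more 30.1% were called higher and 6.62% lower.

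The 79 genes listed at 1-2h and not at 2-3h had a median of 0.635 TPM at 1-2h, and 36 of them reached 1 TPM.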
